A study of Mus musculus with 6 samples.

Results

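The genes described here encode the intracellular relay of G protein-coupled receptors: the Gα, Gβ and Gγ subunits, the adenylyl cyclases, the cyclic nucleotide phosphodiesterases, the subunits of protein kinase A and the regulators of G protein signalling (RGS proteins). They were chosen by symbol, as protein-coding genes named Adcy, Pde, Rgs, Gna (i, o, s, q, z or l), Gnb, Gng, Prkac or Prkar. This gave 81 of the 43346 genes in the count table. RNA was taken from cultured cortical cells of mice at gestational day 15.5 that received either DMSO as the vehicle or 10HDA at 1 mM (trans-10-hydroxy-2-decenoic acid, an unsaturated fatty acid of royal jelly), and the comparison asks what 10HDA did to gene expression in these cells. Each of cultures 1, 3 and 4 gave 1 library of each treatment, so there were 3 vehicle and 3 10HDA libraries. The labels give both groups the strain Cyp19-EGFP, a line in which green fluorescent protein marks cells that express the aromatase gene, and the genotype SRY+, whereas the methods of the study name C57BL/6 embryos for this experiment. The length of the treatment and the number of embryos behind a culture were not given in the sources used here.

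A receptor that binds its ligand makes the Gα subunit exchange GDP for GTP and part from the Gβγ dimer. Gαs and its olfactory and striatal relative Gαolf stimulate adenylyl cyclases, Gαi and Gαo proteins restrain them or act through Gβγ on ion channels, and Gαq stimulates phospholipase C. Cyclic AMP releases the catalytic subunits of protein kinase A from their regulatory subunits, phosphodiesterases degrade cyclic AMP and cyclic GMP, and RGS proteins speed the hydrolysis of GTP on Gα and so shorten the signal.

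The libraries held from 9144736 to 13367194 counts, at which 3 counts correspond to between 0.224 and 0.328 CPM (counts scaled to a common library size). Of the 81 members, 64 had at least 1 CPM in at least 3 libraries and were tested. All 64 reached 1 CPM in 6 of 6 libraries, so none was kept through 1 treatment only. The other 17 stayed below the filter, with no library above 1.56 CPM: Adcy4, Adcy10, Gnb3, Gng8, Gng11, Gng13, Pde4c, Pde6a, Pde6b, Pde6c, Pde11a, Rgs1, Rgs5, Rgs13, Rgs18, Rgs21 and Rgs22. Among them, Rgs1, Rgs18 and Rgs21 had 0 counts in every library, which at this depth allows up to 0.224 to 0.328 CPM in a library. The annotation's identifier for Pde2a matched no row and the gene was not analysed here. Both libraries of culture 1 had a summed level of Y-linked genes of 8.87 and 9.19 CPM, against 95.1 to 132 CPM in the 4 other libraries, which goes against the label SRY+ for that culture. Xist, the RNA of the inactive X chromosome, ranged from 397 to 820 CPM across the libraries of cultures 3 and 4. It reached 1010 and 1427 CPM in those of culture 1, so it was found in every culture. Male cells have no inactive X chromosome, so these levels go against male cells alone in cultures 3 and 4 as well. The share of female cells in a culture was not tested. Results are therefore also given without each culture. Neuronal markers, the check of the labelled cell type, summed to between 7233 and 7759 CPM in the vehicle libraries, while 7 microglial markers summed to at most 1.17 CPM, with Tmem119 at 0.

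**Figure D1:**
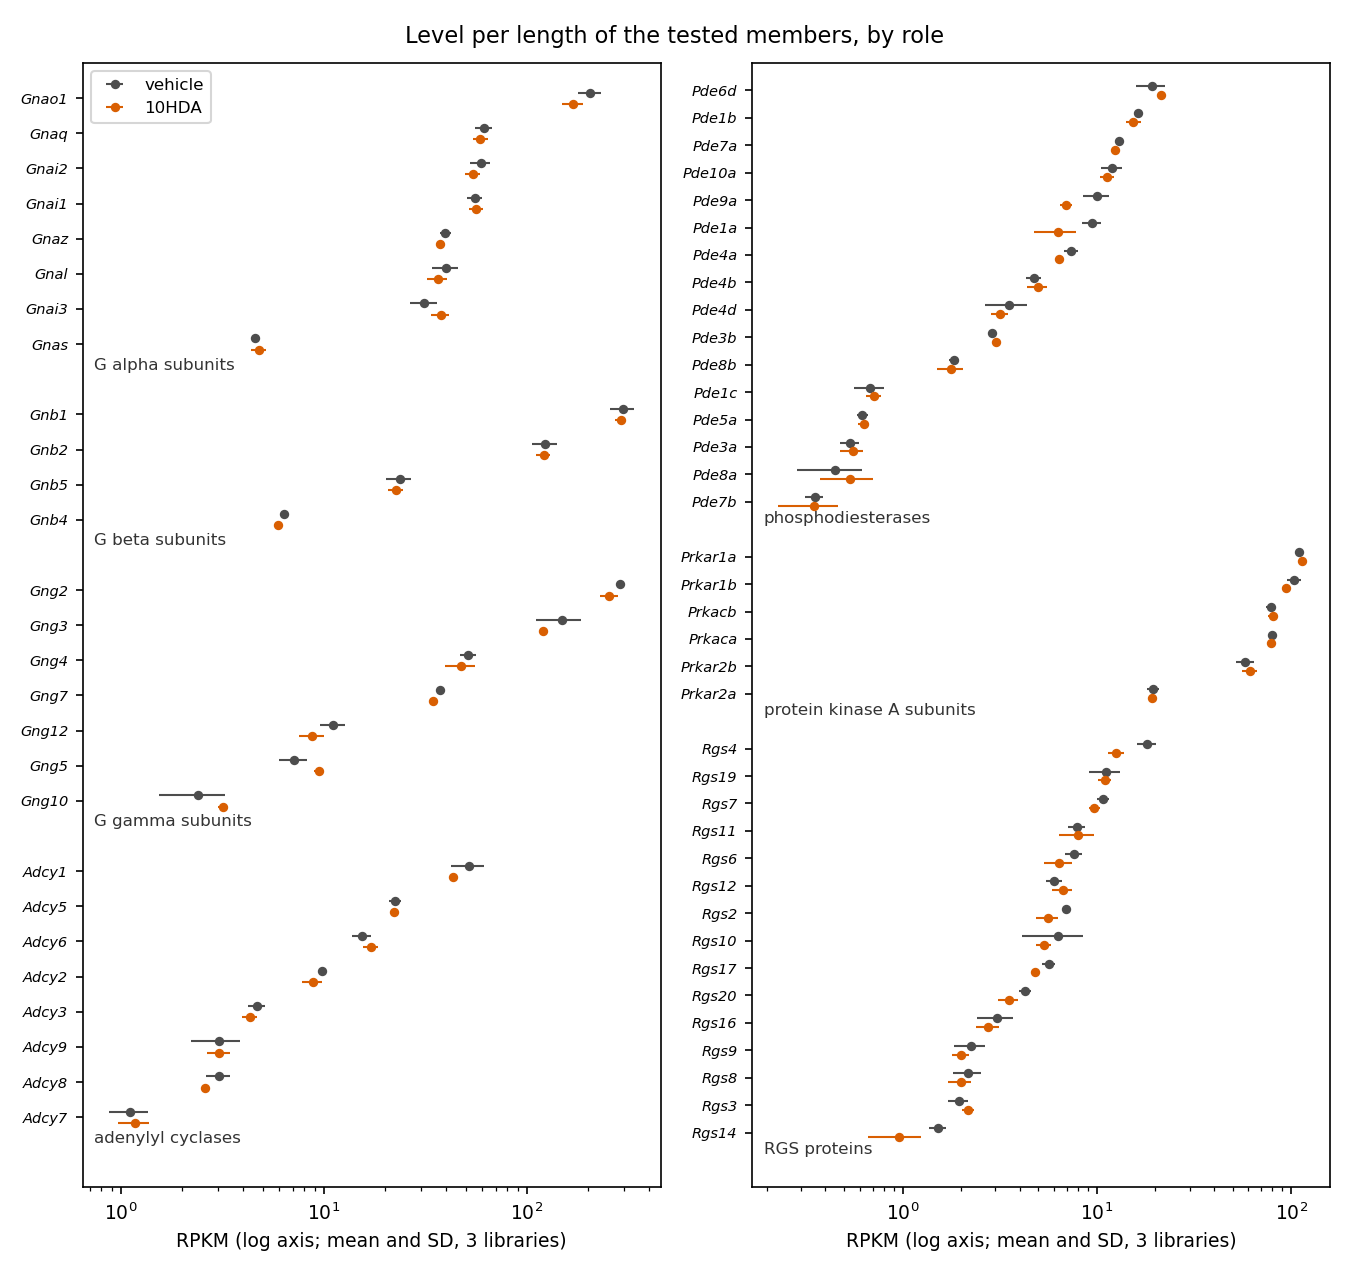
Mean level of the 64 tested members as CPM per 1000 exon bases (RPKM, log axis) by role, with bars of 1 SD over the 3 vehicle libraries (grey) and the 3 10HDA libraries (orange). The Gα, Gβ and Gγ classes are each led by a single subunit (Gnao1, Gnb1 and Gng2), and the phosphodiesterases and RGS proteins lie lower, with means over 6 libraries of at most 20.3 and 15.4 RPKM.

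In levels per length, Gnao1, Gnb1 and Gng2 led their classes. Gnao1, which encodes Gαo, the most abundant Gα of brain, stood at a mean of 187 RPKM over 6 libraries (range 152 to 233), above every library of the next gene, Gnaq, at 60.2 RPKM. Gnb1 held 66.0% of the summed Gβ level with 294 RPKM, and Gng2 held 53.0% of the Gγ level with 271 RPKM, followed by the neuronal subunit Gng3 with 134 RPKM. Adcy1, the calcium- and calmodulin-stimulated adenylyl cyclase of cortex and hippocampus, made up 44.5% of the adenylyl cyclase level with 47.5 RPKM, and its lowest library (41.4 RPKM) was above the highest of Adcy5, which had a mean of 22.3 RPKM. Prkar1a (111 RPKM) and Prkar1b (99.1 RPKM), both regulatory subunits of protein kinase A, overlapped between libraries, as did the catalytic subunits Prkacb (79.7 RPKM) and Prkaca (79.5 RPKM). Among the phosphodiesterases, Pde1b (15.8 RPKM), Pde7a (12.7 RPKM) and Pde10a (11.7 RPKM) followed Pde6d (20.3 RPKM), whose product binds prenyl groups and is not itself a hydrolase. The RGS genes formed a graded series from Rgs4 (15.4 RPKM) to Rgs14 (1.24 RPKM), in which each of the first 13 overlapped with its next neighbour. Gnas, which encodes Gαs, had only 4.67 RPKM over a length of 11186 bases. Genes of the opposite strand overlap 22% of its exon bases, beside 24.2% for Gng3 and 20.4% for Gng2. Whether the counting used strand was not given in the sources used here, and the part of the overlap in the level of Gnas was not tested.

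With edgeR's quasi-likelihood test on all 15311 tested genes and no term for culture, 0 of the 64 members reached a Benjamini-Hochberg adjusted p below 0.1, against 0.509% of all genes. An unadjusted p below 0.05 was found for 8 members that were lower with 10HDA, namely Gnao1, Gng12, Pde1a, Pde9a, Rgs2, Rgs4, Rgs14 and Rgs17 (12.5% of the tested members, against 4.87% of all genes), and for 1 that was higher, Gng5 (1.56%, against 5.55%). On the same samples DESeq2 called 2 members, Pde1a and Rgs4 (3.12%, against 1.18% of all genes), edgeR's likelihood ratio test 3, also Pde9a (4.69%, against 2.01%), and limma-voom 0 (against 0.411%), with 7, 8 and 8 members at an unadjusted p below 0.05. With culture as a block, which compares the treatments within cultures, 6 members passed in edgeR's quasi-likelihood test. The 5 that fell were Gnao1, Gng12, Pde1a, Pde9a and Rgs4 (7.81%, against 3.58% of all genes), and the 1 that rose was Gng5 (1.56%, against 3.92%). Without culture 1 the unblocked fit called 0 members (10 at an unadjusted p below 0.05), and the blocked fit again called 6 members, with Adcy1 in place of Gnao1 (9.38%, against 5.32% of all genes). Without culture 3 it called 7 (10.9%, against 8.12%). Without culture 4 it called 2, Pde1a and Rgs4, and this share of 3.12% was close to the 3.04% of all genes.

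**Figure D2:**
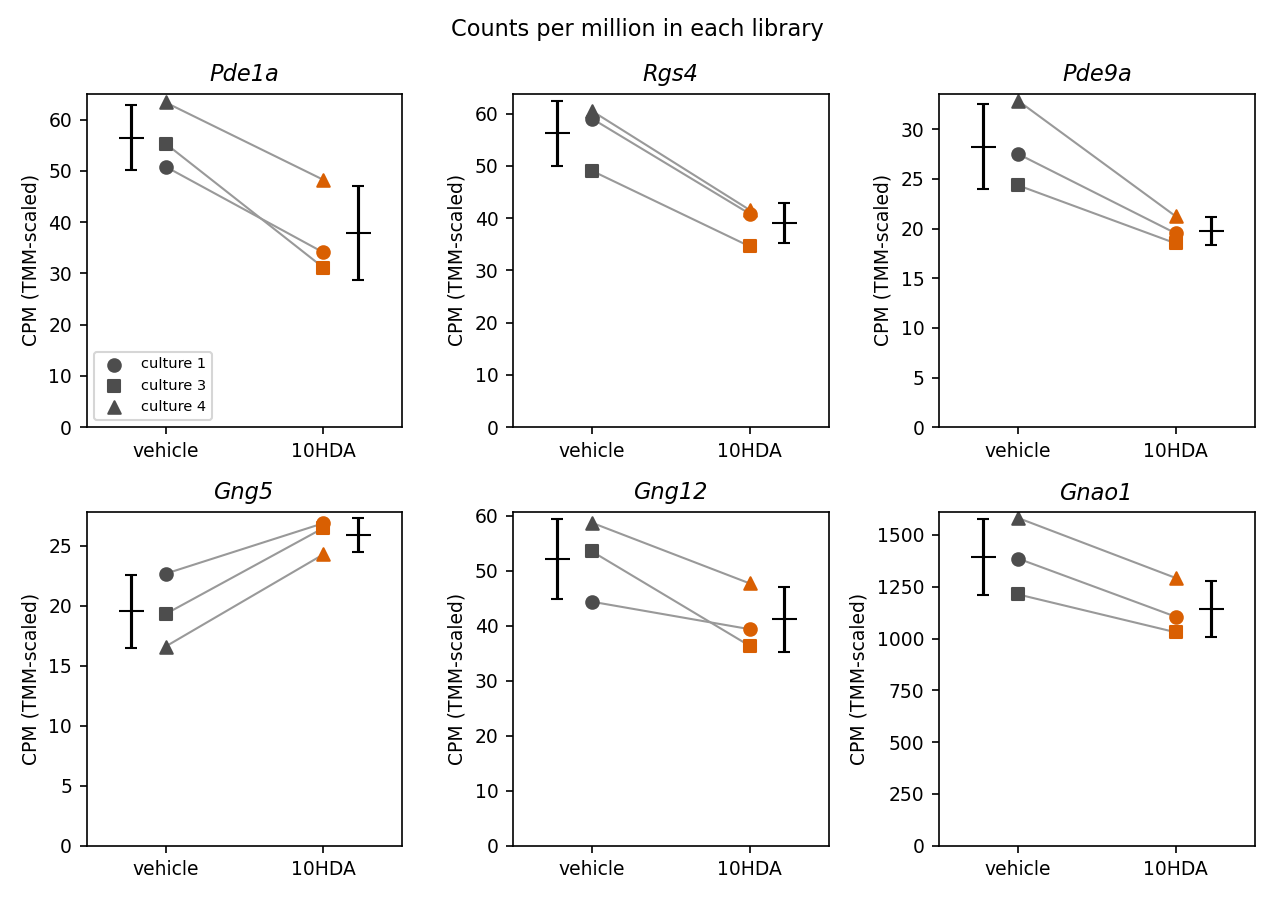
CPM after TMM scaling of the 6 members with an adjusted p under 0.1 in the blocked fit, in each of the 6 libraries; lines join the libraries of 1 culture, and the bars beside the points are the mean and 1 SD over 3 libraries. Each of the 3 lines slopes down for Pde1a, Rgs4, Pde9a, Gng12 and Gnao1 and up for Gng5, and the treatments overlap only for Gng12 and Gnao1.

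Rgs4 and Pde1a fell within every culture. Rgs4, an RGS protein of the R4 class that acts on Gαi and Gαq, had 59.1, 49.1 and 60.5 CPM in the vehicle libraries of cultures 1, 3 and 4 and 40.8, 34.6 and 41.6 CPM in the 10HDA libraries. Every 10HDA library was below every vehicle library, and the 3 within-culture differences in log2 CPM were close to each other (-0.53, -0.50 and -0.54). The log2 fold change was -0.53 ± 0.12 (SE), with an edgeR adjusted p of 0.136 without and 0.00305 with the block. Pde1a, a calmodulin-dependent phosphodiesterase of cyclic AMP and cyclic GMP, had 50.8, 55.3 and 63.3 CPM with vehicle and 34.1, 31.1 and 48.2 CPM with 10HDA, again without overlap. Its log2 fold change was -0.59 ± 0.16 (SE), with an edgeR adjusted p of 0.219 without and 0.00166 with the block. Both genes passed in all 11 alternatives of the blocked fit, in which the edgeR, DESeq2 or limma-voom adjusted p reached at most 0.0378 for Rgs4 and 0.00824 for Pde1a.

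Their promoter sequences, and those of Gng5 and Gng12, are shown because these genes passed in the blocked fit and at least 100 bases before a RefSeq start lie outside the gene's annotated span, which left out Gnao1. The bases are those before the RefSeq transcription start (GRCm38.p6), at most 250, and end where the gene's annotated span begins. Capitals mark 4 motifs searched on both strands, which are TGACG (the half-site of the cyclic AMP response element, CRE), TATAAA (the TATA box), CCAAT (the CCAAT box) and GGGCGG (the GC box). Rgs4 lies on the minus strand, chr1:169747643-169747892. Pde1a is shown for the most upstream of its starts, on the minus strand, chr2:80129459-80129662. Gng5 and Gng12 lie on the plus strand, chr3:146499586-146499806 and chr6:66896147-66896396.
Rgs4: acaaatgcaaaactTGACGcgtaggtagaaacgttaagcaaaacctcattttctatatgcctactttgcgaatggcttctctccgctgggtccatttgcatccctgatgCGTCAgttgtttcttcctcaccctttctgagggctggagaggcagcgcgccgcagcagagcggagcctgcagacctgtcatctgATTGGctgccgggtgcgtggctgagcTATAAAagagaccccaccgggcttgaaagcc
Pde1a: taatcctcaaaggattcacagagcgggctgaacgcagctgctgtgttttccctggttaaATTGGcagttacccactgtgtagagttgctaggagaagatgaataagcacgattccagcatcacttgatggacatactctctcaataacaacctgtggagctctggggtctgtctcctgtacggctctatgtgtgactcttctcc
Gng5: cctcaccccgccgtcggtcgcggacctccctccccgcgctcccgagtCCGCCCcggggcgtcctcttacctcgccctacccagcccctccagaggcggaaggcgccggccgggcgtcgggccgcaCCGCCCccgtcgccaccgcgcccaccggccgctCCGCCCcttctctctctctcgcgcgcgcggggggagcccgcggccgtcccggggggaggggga
Gng12: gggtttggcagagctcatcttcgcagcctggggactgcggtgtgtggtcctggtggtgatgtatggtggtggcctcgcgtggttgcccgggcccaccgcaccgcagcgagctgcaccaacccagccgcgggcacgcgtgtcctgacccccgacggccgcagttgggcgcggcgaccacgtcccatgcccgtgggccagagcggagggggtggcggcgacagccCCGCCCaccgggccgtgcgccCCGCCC

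The Rgs4 sequence holds a TATA box that begins 31 bases before the start, a CCAAT box in reverse and 2 CRE half-sites. The Pde1a sequence holds 1 CCAAT box in reverse, whereas Gng5 holds 3 and Gng12 holds 2 GC boxes, all in reverse. RefSeq promoters were found for 61 of the 81 members, with 107 windows of 250 bases among 32851 windows of all genes. The full CRE, TGACGTCA, which includes the half-site, was found in 0.935% of member windows and 1.55% of all windows, and Prkar1a was the single member that held it, 49 bases before a start. CRE half-sites were found in 21.5% of member windows and 17.8% of all, TATA boxes in 10.3% and 12.4%, CCAAT boxes in 27.1% and 33.8%, and GC boxes in 43% and 32.7%. A match describes these letters and not binding. No promoter entry was found for Pde9a.

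Among the 8 Gα genes, 5 were lower and 3 higher with 10HDA, with a median log2 fold change of -0.08. Gnao1 had 1386, 1213 and 1582 CPM with vehicle and 1105, 1030 and 1292 CPM with 10HDA. The treatments overlapped between cultures, but the 10HDA library was lower in each of the 3 cultures. The log2 fold change was -0.29 ± 0.13 (SE), with an edgeR adjusted p of 0.474 without and 0.0837 with the block, and the blocked value rose to 0.16 without culture 1, 0.106 without culture 3 and 0.363 without culture 4. Gnai3, which encodes a broadly expressed Gαi, differed in the other direction, with 93.6, 119 and 91.8 CPM with vehicle and 131, 129 and 107 CPM with 10HDA. It was higher in 3 of 3 cultures, with a log2 fold change of 0.27 ± 0.13 (SE), but did not pass (edgeR adjusted p of 0.484, and 0.119 with the block). Gnaz, Gnai2 and Gnal had log2 fold changes of -0.10, -0.13 and -0.14, Gnaq -0.06, and Gnai1 and Gnas 0.02 and 0.06. Summed per length, the Gi and Go class stood at 389, 366 and 417 RPKM with vehicle and 351, 336 and 374 RPKM with 10HDA, lower in each culture. This sum is led by Gnao1, with a mean of 187 RPKM over 6 libraries, and is not a result apart from that gene. Of the 5 genes in the class, 3 were lower and 2 higher.

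Gβ genes moved little. Gnb1 had 1329, 1405 and 1075 CPM with vehicle and 1319, 1235 and 1157 CPM with 10HDA (log2 fold change -0.04 ± 0.12, SE), and it turned to 0.02 when only library size was used for scaling. Gnb4 had narrow groups, with 83.2, 80.5 and 78.3 CPM against 77.5, 75.7 and 73.7 CPM, which did not overlap although the log2 fold change was only -0.09 ± 0.09 (SE, edgeR adjusted p of 0.746, and 0.66 with the block). Gnb5, the atypical Gβ that partners the R7 class of RGS proteins, had 28.3, 31.9 and 23.8 CPM against 29.5, 25.2 and 25.7 CPM. It was lower in culture 3 alone, and its log2 fold change of -0.06 turned to 0.07 without that culture.

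The Gγ genes spread in both directions, from -0.35 to 0.42, with 5 lower and 2 higher of 7 and a median of -0.12. Gng12, a broadly expressed Gγ, had 44.4, 53.5 and 58.7 CPM with vehicle and 39.4, 36.3 and 47.7 CPM with 10HDA, so that the groups overlapped but each culture was lower. The log2 fold change was -0.35 ± 0.14 (SE), with an edgeR adjusted p of 0.409 without and 0.0658 with the block, and the blocked value was 0.059 without culture 1, 0.213 without culture 3 and 0.234 without culture 4. Gng5 rose, from 22.7, 19.3 and 16.6 CPM with vehicle to 26.9, 26.5 and 24.3 CPM with 10HDA, and it was the one Gγ gene whose 10HDA libraries all lay above the vehicle libraries. Its log2 fold change was 0.41 ± 0.14 (SE), with an edgeR adjusted p of 0.337 without and 0.0468 with the block, and the blocked value was 0.0604 without culture 1, 0.0934 without culture 3 and 0.415 without culture 4. The annotation also lists a pseudogene copy, Gng5-ps, so the count of Gng5 is uncertain where reads match both. Pseudogene copies of the other members are not listed here. Gng2, the most abundant Gγ, had 1237, 1236 and 1321 CPM with vehicle and 1111, 1004 and 1239 CPM with 10HDA, lower in every culture (log2 fold change -0.18 ± 0.11, SE, with an edgeR adjusted p of 0.304 with the block). Gng7, the Gγ that pairs with Gαolf in striatum, did not overlap between treatments (148, 138 and 139 CPM against 134, 125 and 134 CPM), with a log2 fold change of -0.11. The value of Gng3, -0.30, came from cultures 1 and 4, and culture 3 went the other way (0.19). Opposite-strand genes overlap 24.2% of the exon bases of Gng3 and 20.4% of those of Gng2. Gng10 had the highest value, 0.42 ± 0.26 (SE), from at most 4.42 CPM, and 72% of its exon bases are shared with a same-strand gene, Gm20503.

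No adenylyl cyclase passed in either fit over 3 cultures (Adcy1 passed in the blocked fit without culture 1), and classes of cyclases were not tested against each other. The 3 calcium-stimulated enzymes, Adcy1, Adcy3 and Adcy8, had log2 fold changes of -0.25, -0.11 and -0.23. An opposite-strand gene, Cenpo, overlaps 22.1% of the exon bases of Adcy3. Adcy1 had 518, 756 and 666 CPM with vehicle and 556, 542 and 534 CPM with 10HDA. Culture 1 went up by 0.10 on the log2 scale and cultures 3 and 4 went down by 0.48 and 0.32, so the log2 fold change of -0.25 ± 0.13 (SE) had an edgeR adjusted p of 0.519, and of 0.225 with the block. Adcy8 had the same shape, with 13, 17.1 and 15.9 CPM against 13.2, 13.1 and 13 CPM (log2 fold change -0.23 ± 0.15, SE). For both genes the 10HDA libraries lay close together and the vehicle library of culture 1 stood apart from the other two. Per length, the sum of the calcium-stimulated class was 48.2, 68.8 and 61.2 RPKM with vehicle and 51.1, 50.6 and 49.4 RPKM with 10HDA. This sum mostly repeats Adcy1, whose mean over 6 libraries was 47.5 RPKM, against 4.50 RPKM for Adcy3 and 2.82 RPKM for Adcy8. The calcium-inhibited enzymes Adcy5 and Adcy6 had log2 fold changes of -0.01 and 0.14, the Gβγ-stimulated Adcy2 and Adcy7 had -0.16 and 0.06, and Adcy9 was at 0.00.

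**Figure D3:**
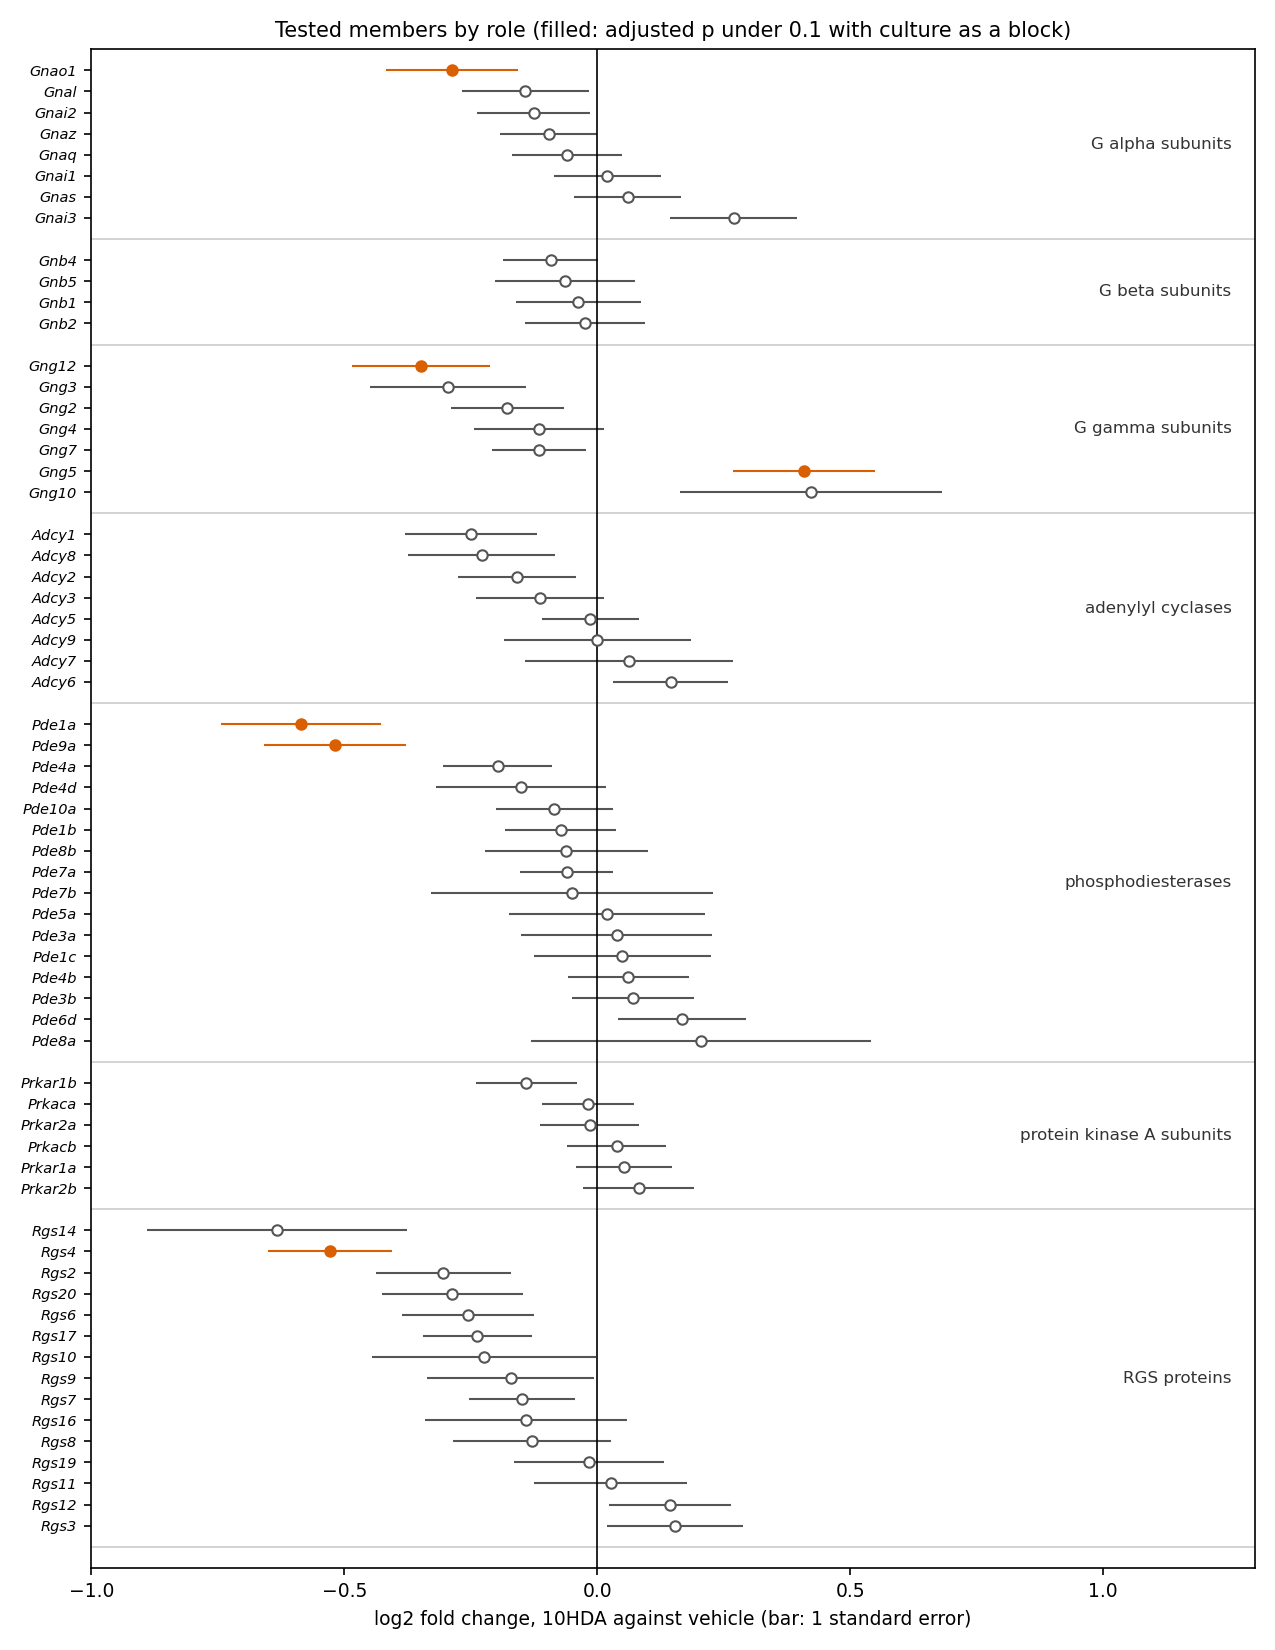
Log2 fold change of 10HDA against vehicle for each tested member, by role, from edgeR's quasi-likelihood fit without a block, with bars of 1 standard error; filled points had an adjusted p under 0.1 in the blocked fit. The filled points are Gnao1, Gng12, Pde1a, Pde9a and Rgs4 below 0 and Gng5 above 0, and 12 of 15 RGS genes lie below 0.

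Phosphodiesterases held the largest called difference, that of Pde1a, beside 14 tested members that passed in neither fit. Pde9a, a cyclic GMP-selective enzyme of high affinity, had 27.5, 24.3 and 32.9 CPM with vehicle and 19.5, 18.5 and 21.2 CPM with 10HDA. The groups did not overlap, and the log2 fold change was -0.52 ± 0.14 (SE), with an edgeR adjusted p of 0.227 without and 0.0122 with the block. The blocked value was 0.0476 without culture 1, 0.00166 without culture 3 and 0.156 without culture 4. Genes of other names overlap 8.34% of the exon bases of Pde9a. The close relatives of Pde1a did not share its difference, since the log2 fold change was -0.07 ± 0.11 (SE) for Pde1b and 0.05 ± 0.18 (SE) for Pde1c. The difference between these genes was not tested. Of the cyclic AMP-selective enzymes, Pde4a had 53.2, 53.9 and 61.8 CPM against 46.7, 51.9 and 48.6 CPM without overlap (log2 fold change -0.20 ± 0.11, SE, edgeR adjusted p of 0.32 with the block), while Pde4b stood at 0.06 and Pde4d at -0.15. Pde10a, the dual-specificity enzyme of striatal projection neurons and the highest by CPM, had 130, 155 and 168 CPM against 141, 131 and 155 CPM, a log2 fold change of -0.08 ± 0.12 (SE). Pde3b was the one phosphodiesterase with no overlap in the higher direction, from 19.2, 20.5 and 19.8 to 21.2, 20.5 and 20.9 CPM, a gap smaller than the rounding, and its log2 fold change of 0.07 did not pass (edgeR adjusted p of 0.802 with the block).

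Protein kinase A subunits stayed close to their vehicle levels, with 3 lower and 3 higher and all 6 values between -0.14 and 0.08. Prkar1a had 483, 485 and 449 CPM with vehicle and 501, 485 and 483 CPM with 10HDA. Prkar1b, the neuronal type I regulatory subunit, had 432, 367 and 389 CPM against 350, 360 and 368 CPM, lower in each culture (log2 fold change -0.14 ± 0.10, SE, edgeR adjusted p of 0.466 with the block). Prkar2b, the main type II regulatory subunit of brain, had 203, 237 and 196 CPM against 236, 201 and 237 CPM, and its log2 fold change of 0.08 turned to -0.03 without culture 4. The catalytic subunits Prkaca and Prkacb had -0.02 and 0.04.

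Most RGS genes were lower with 10HDA. Of 15 tested, 12 had a log2 fold change below 0 (80%, against 47.4% of all genes), with a median of -0.17. In 3 of 3 cultures 9 were lower, against 2694 of all 15311 tested genes, whereas Rgs12 was higher in 3 of 3. Only Rgs4 passed in the blocked fit. No overlap between treatments was found for Rgs2, Rgs4, Rgs7, Rgs14, Rgs17 and Rgs20, 6 of the 15 and all lower with 10HDA, against 6.49% of all genes. Rgs2, an R4 protein that acts on Gαq, had 25.5, 25.4 and 24.2 CPM with vehicle and 23.1, 19.9 and 17.7 CPM with 10HDA (log2 fold change -0.30 ± 0.13, SE, edgeR adjusted p of 0.146 with the block). Rgs17, a member of the RZ class, had 43.8, 50.9 and 45.9 CPM against 38.2, 40.5 and 40.6 CPM (-0.24 ± 0.11, SE, edgeR adjusted p of 0.21 with the block). Rgs14 had the largest fold change and the lowest level of the 15, 3.58, 3.53 and 4.21 CPM against 2.77, 2.83 and 1.53 CPM, with a log2 fold change of -0.63 ± 0.26 (SE) that did not pass (edgeR adjusted p of 0.416, and 0.155 with the block) and that was greatest in culture 4. Rgs7, the highest RGS gene by CPM and a partner of Gnb5, had 62.6, 61.6 and 69.7 CPM against 59.6, 54.0 and 61.5 CPM. Its groups were separated by a narrow gap, with a log2 fold change of -0.15 ± 0.11 (SE). The fold changes of Rgs3 and Rgs12 were the highest of the class, at 0.15 and 0.14.

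Summed per length over all RGS genes, the vehicle libraries stood at 101, 91.0 and 96.8 RPKM and the 10HDA libraries at 84.3, 84.9 and 83.7 RPKM. These sums did not overlap, with an exact permutation test of 3 against 3 unable to go below 0.1. Without Rgs4 they were 81.4, 75.1 and 77.3 RPKM against 71.1, 73.7 and 70.3 RPKM, still without overlap. By class, the R4 proteins summed to 34.5, 30.4 and 32.9 RPKM against 27.3, 24.4 and 25.9 RPKM, and the R7 proteins, which bind Gnb5, to 26.3, 28.0 and 31.3 RPKM against 25, 26.9 and 26.5 RPKM. The R4 sums did not overlap and the R7 sums did. Without Rgs4 the R4 sums were 15.4, 14.6 and 13.4 RPKM against 14.1, 13.2 and 12.5 RPKM, which overlapped. In the RZ class, Rgs17, Rgs19 and Rgs20 summed to 23.3, 19.6 and 20.3 RPKM against 19.6, 19.3 and 18.9 RPKM. The highest 10HDA library and the lowest vehicle library of that class both stood at 19.6 RPKM. Compared within each culture, the R4, R7 and RZ sums, and the R4 sum without Rgs4, were all lower with 10HDA. The R12 sums were 16.4, 12.9 and 12.2 RPKM against 12.4, 14.2 and 12.3 RPKM, higher in cultures 3 and 4.

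Over the 64 tested members, 44 were lower and 20 higher with 10HDA, so that 68.8% were lower against 47.4% of all tested genes. The median log2 fold change was -0.07 against 0.01 for all genes. With library size alone 33 of 64 were lower (51.6%) and the members' median was -0.0078, while the median of all genes moved from 0.01 to 0.07, so that the members still lay below all genes. The libraries of the treatments did not overlap for 11 members that were lower (17.2%, against 6.49% of all genes), namely Gnb4, Gng7, Pde1a, Pde4a, Pde9a, Rgs2, Rgs4, Rgs7, Rgs14, Rgs17 and Rgs20, and for 2 that were higher, Gng5 and Pde3b (3.12%, against 7.3%). By culture, 34, 46 and 40 of 64 members were lower in cultures 1, 3 and 4, with medians of -0.02, -0.15 and -0.06. Of all 15311 tested genes, 7074, 7351 and 7587 were lower in these cultures. In all 3 cultures 21 members were lower and 5 were higher, against 2694 and 3243 of the 15311 genes. The medians of the phosphodiesterases and adenylyl cyclases changed sign between cultures, at 0.06, -0.23 and 0.05 and at 0.09, -0.18 and -0.09. Those of the Gα, Gβ and protein kinase A genes changed sign as well. The RGS medians stayed below 0, at -0.19, -0.15 and -0.16, and so did the Gγ medians, at -0.15, -0.15 and -0.05.

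**Figure D4:**
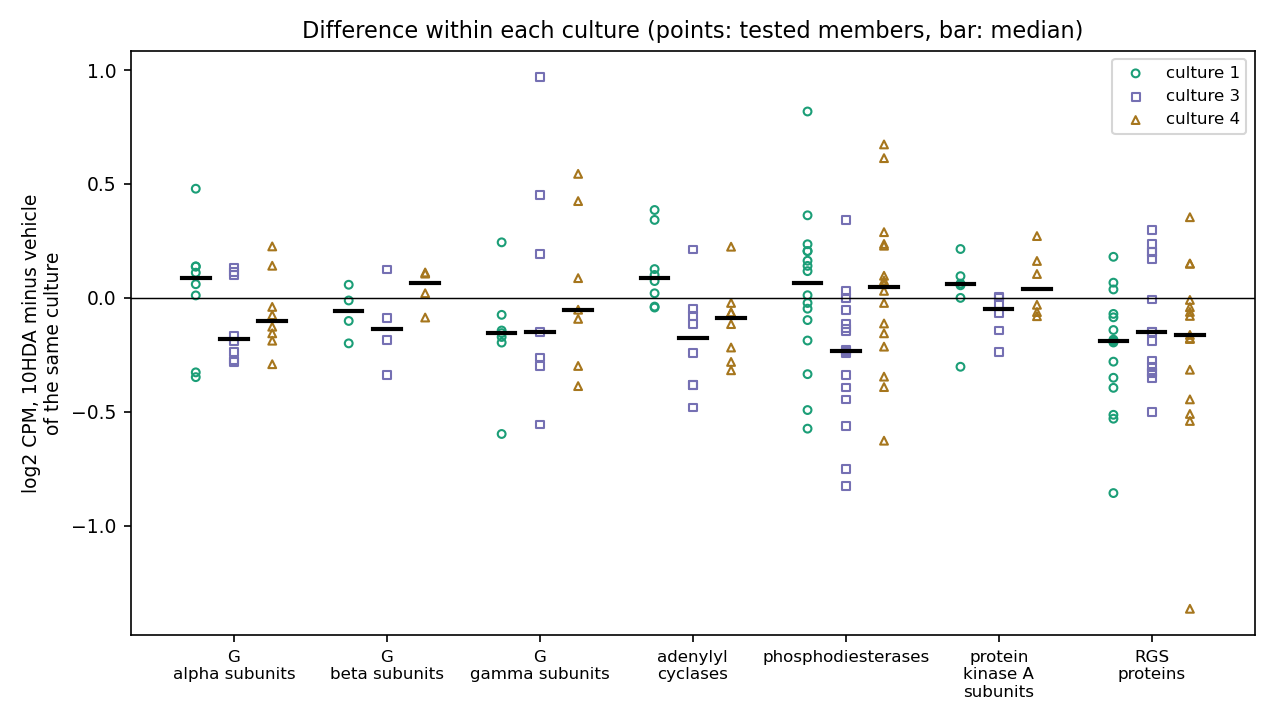
Difference in log2 CPM between the 10HDA and the vehicle library of the same culture for each tested member, by role, with 1 point per member and culture and a bar at the median. The RGS medians are -0.19, -0.15 and -0.16 in cultures 1, 3 and 4, and the Gγ medians also lie below 0 in each culture. The medians of the adenylyl cyclases and phosphodiesterases lie on both sides of 0.

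Between the vehicle libraries the members varied about as much as other genes. The median range between the 3 vehicle libraries was 0.29 on the log2 scale for the tested members and 0.34 for all tested genes, and the widest members were Gng10 (0.96), Pde8a (0.94) and Rgs10 (0.83). Markers of other and of the labelled cell types moved with the treatment. Of 8 neuronal markers, 7 were lower (3 past the threshold with the block), and their sum was 7233 to 7759 CPM with vehicle and 6115 to 6938 CPM with 10HDA. All 7 tested astrocyte markers of 8 were lower (3 past the threshold without and 4 with the block), with sums of 1114 to 1373 CPM against 844 to 1053 CPM. Of the radial glia markers 4 of 6 were lower (2 of the 6 past the threshold with the block, Fabp7 at -0.40 and Vim at 0.33, in opposite directions), with sums of 761 to 931 CPM against 704 to 793 CPM. Of the oligodendrocyte lineage markers 5 of 7 were lower, with sums of 329 to 406 CPM against 251 to 356 CPM. With the block 3 of them passed the threshold, among them Pdgfra at -1.19, and without the block 1 passed, Cspg4 at -0.91. Olig2 was at 0.25 and did not pass. Interneuron markers were lower in 7 of 8 (2 past the threshold with the block), with 491 to 618 CPM against 417 to 564 CPM. Striatal projection neuron markers were lower in 6 of 10, with 61.9 to 86.3 CPM against 57.8 to 78.5 CPM, and the 1 past the threshold with the block, Tac1, was higher (0.71). Summed markers of pericytes (38.1 to 45.3 CPM against 26.8 to 34.3 CPM), meningeal fibroblasts (9.83 to 12.2 CPM against 6.38 to 6.68 CPM) and endothelial cells (2.24 to 2.81 CPM against 1.53 to 1.82 CPM) were low and did not overlap between treatments. Only 2 of 6, 2 of 5 and 0 of 6 of these markers were tested. Pdgfrb of pericytes (-1.06) and Dcn of fibroblasts (-1.02) passed in both fits. The other tested marker of each type, Notch3 (-0.14) and Col1a1 (-0.006), overlapped between treatments. The sums of pericyte and fibroblast markers thus follow Pdgfrb and Dcn. The part of these shifts in the members' differences was not tested, and in bulk RNA fewer cells of a type and less RNA per cell cannot be told apart.

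Outside the family, 84 genes of the same pathway were examined, of which 69 were tested, 45 lower and 24 higher, with a median log2 fold change of -0.09. No neighbour passed the quasi-likelihood test of edgeR in the unblocked fit (against 0.509% of all genes). There 10 had an unadjusted p below 0.05, all lower (14.5%, against 4.87% of all genes). The likelihood ratio test of edgeR called 2 of the 69, against 2.01% of all genes. With culture as a block 8 passed, all lower (11.6%, against 3.58% of all genes). They were the receptors Adora1, Chrm1 and S1pr1, the phospholipases Plcb1 and Plcb4, Arpp21, and the kinase anchors Akap12 and Akap13. Adora1, the adenosine receptor that couples to Gαi and Gαo, had 63.1, 55.0 and 76.2 CPM with vehicle and 44.7, 44.0 and 52.3 CPM with 10HDA, without overlap (log2 fold change -0.46 ± 0.13, SE, edgeR adjusted p of 0.255, and 0.0105 with the block). Chrm1, a muscarinic receptor that couples to Gαq, had 19.4, 18.9 and 27.8 CPM against 12.1, 14.3 and 18.8 CPM, a narrow gap (-0.56 ± 0.19, SE, edgeR adjusted p of 0.012 with the block). Arpp21, a cyclic AMP-regulated phosphoprotein, had 151, 146 and 190 CPM against 127, 110 and 127 CPM (-0.42 ± 0.12, SE, edgeR adjusted p of 0.0134 with the block). Without culture 4, only 1 of the 69 neighbours passed with the block, against 3.04% of all genes. Lower values were found for 20 of 32 receptors, 8 of 13 regulators, 2 of 3 phospholipase C beta genes, 7 of 8 cyclic AMP effectors and inhibitors and 8 of 10 kinase anchors, and for 0 of 3 further Gα genes, Gna11, Gna12 and Gna13, whose log2 fold changes were 0.03, 0.07 and 0.08. The dopamine receptors Drd1 and Drd2 were at 2.07 to 4.60 and 2.08 to 3.96 CPM, and neither passed.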

How the data were processed

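Libraries were made from total RNA with a strand-specific kit. According to the methods of the study, the authors mapped untrimmed single-end reads to mm10 with Subjunc (Subread 1.4.4) and used featureCounts with Gencode models; what they deposited is a table of raw counts with each gene's exon length. Symbols and coordinates came from GENCODE M21 (GRCm38), which matched 97.96% of the identifiers. No rows were left out as unnamed totals, and the number of unassigned sample columns was 0.

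The 15311 genes that reached 1 CPM in 3 or more libraries were tested with edgeR 4.0.16 in R 4.3.3 after TMM scaling (glmQLFit and glmQLFTest, Benjamini-Hochberg adjustment, threshold 0.1 as in the study), on 3 vehicle and 3 10HDA libraries without covariates, where the methods of the study name none. Values are given for the members, for some pathway neighbours and, as sums or fold changes, for cell type markers. Standard errors are the fold change over the square root of F. Log2 CPM differences within a culture used a prior count of 2. The scripts were tested on simulated data. edgeR's common coefficient of variation between libraries was 0.121, or 0.0866 in the blocked fit, which adds culture as a term. The labels put 1 library of each treatment in each culture, so culture pairs the libraries. As a check, the deviations from the treatment means correlated across genes at 0.25, 0.22 and 0.45 within cultures 1, 3 and 4 and at -0.31 to 0.08 between cultures. The deviations of a gene within a treatment cancel out, so values above 0 within cultures push those between cultures down. The contrast is therefore partly fixed by this centring, and genes are not independent replicates. Whether cultures came from separate litters was not given in the sources used here, so p-values measure the spread between these cultures. Limits from low counts cover counting error only.

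The members and the lists were chosen with earlier results of these data known, and the classes within roles were set after values were seen. Members given in every library were those past the threshold in either fit, the 2 with the smallest p and the 1 with the highest CPM in each role; Gng7, Pde3b, Pde4a, Rgs2 and Rgs17 were added after their values were seen. Of the neighbours, those named were chosen by their values, besides Drd1, Drd2 and the Gα genes. Alternatives were other scalings, DESeq2 1.42.0, edgeR's likelihood ratio test, limma-voom (limma 3.58.1), other filters, the block and leaving out libraries; those applied to the blocked fit were added after seeing the data.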

Additional observations from a re-analysis of the deposited data

How the results depend on the processing

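With no replicate block, 0 members passed (0.509% of all genes), against 2 with DESeq2 (1.18%), 3 with the likelihood ratio test (2.01%), 3 with no filter on low counts (2.37%) and 6 with the replicate block (7.5%), so member counts rose with those of all genes. Leaving out 1 library, or both libraries of 1 culture, gave 0 to 4 members, of which the 4 came without the 10HDA library of culture 4 (3.75% of all genes) and 1 without all of culture 4 (0.527%). For the pathway neighbours the count was 0, 2 with the likelihood ratio test, 4 with no filter, 8 with the replicate block and 0 to 4 with libraries left out. With pairing by culture, leaving out 1 culture gave 2 to 7 members and 1 to 8 neighbours, the lowest without culture 4. The share of all genes in these fits was 3.04% to 8.12%, also lowest without culture 4. The neighbours' 8 became 5 with library size alone (9.54% of all genes), 4 with DESeq2 (2.74%) and 4 at adjusted p under 0.05. The cause of these shifts was not tested.

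Library size alone moved the median log2 fold change of the Gγ genes to -0.057, of protein kinase A to 0.072 and of the RGS genes to -0.11, and no filter moved the last to -0.15. With libraries left out the medians ran from -0.24 to -0.082 for Gγ and from -0.25 to -0.17 for RGS genes, and that of the phosphodiesterases reached 0.06 without culture 3. Of 360 values of the 19 named members under alternatives, 335 kept direction and side of the threshold, 19 came to pass and 6 reversed. These were Gnb5 (-0.17 to 0.069 with libraries left out, above 0 without the vehicle library or both libraries of culture 3), Prkar2b (-0.030 to 0.23, below 0 without culture 4) and Gnb1 (0.021 with library size alone, and -0.14 to 0.042 with libraries left out, above 0 as for Gnb5). For genes below 5 CPM, such as Rgs14 and Gng10, the counts limit what could be detected.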
